A study of Mus musculus with 25 samples.

Results

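Retnla and a small set of genes linked to alternative activation of macrophages were followed across sorted macrophages and fibroblasts of mouse lung and skin, with and without depletion of neutrophils. The set holds 8 genes: Retnla, Clec10a, Mgl2, Cd209a, Mrc1, Il4ra, Stat6 and Arg1. They were chosen by name, with their values in lung macrophages already known, so their difference between depleted and control lung macrophages is given below as a description and carries no test. Of the 8 genes, 7 have values among the 11867 genes of the lung table and the 12661 genes of the skin table, and Arg1 was not analysed here.

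The 25 libraries, 12 from lung and 13 from skin, come from C57BL/6 mice. In depleted mice (genotype Mrp8_CRE; Rosa26_DTR) the S100a8 promoter, also called Mrp8, drives Cre recombinase in neutrophils and other myeloid cells that use it, and Cre switches on the diphtheria toxin receptor. Control mice (genotype Mrp8_WT; Rosa26_DTR) carry the receptor allele without Cre. All mice, controls included, received intraperitoneal diphtheria toxin, 10 µg per kg for 7 days. Depleted and control mice gave 3 lung macrophage libraries each, 3 lung fibroblast libraries each, and 3 skin fibroblast libraries each. Skin macrophages gave 4 depleted and 3 control libraries. Lung interstitial macrophages were gated on CD45, CD68, F4/80 and high CD11b without CD11c, and skin macrophages on CD45, CD11b, CD68 and F4/80. Fibroblasts were gated on PDGFRA without CD45, CD31 and EPCAM, and in skin also on CD90.1. The labels do not say whether replicates are separate mice, so the p-values below reflect the spread among these libraries alone, and that spread may be technical.

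Values are the authors' normalised signal, which is linear and proportional to estimated reads. Lung libraries hold 124075 to 385925 estimated reads, and skin libraries hold 6553115 to 27259903, so low genes are far less precise in lung. A macrophage score (mean log2 value of macrophage identity genes minus that of fibroblast genes) was 5.89 to 6.35 in the 6 lung macrophage libraries and −5.05 to −3.56 in the 6 lung fibroblast libraries. In skin it was 3.24 to 5.84 in 5 of the libraries labelled macrophages, −9.48 and −9.02 in the libraries labelled control macrophages 1 and control macrophages 5, and −9.55 to −8.60 in the 6 fibroblast libraries. Those 2 control libraries go against their label and are kept apart throughout, which leaves 1 control library, control macrophages 3, for skin macrophages.

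Alternative activation is the state that macrophages take on under interleukin-4 and interleukin-13. Both cytokines signal through the interleukin-4 receptor alpha chain, encoded by Il4ra, and JAK kinases then phosphorylate the transcription factor encoded by Stat6, which enters the nucleus and switches on target genes. In mouse, these targets include Retnla, which encodes the secreted protein RELMα (also called FIZZ1), Arg1, which encodes arginase, and lectin receptors such as the mannose receptor. In lung and skin, macrophages that lie along vessels and nerves carry several of these lectins without an added stimulus.

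Retnla (ENSMUSG00000061100) lies on mouse chromosome 16 at 48842551 to 48844461 of GRCm38, on the plus strand. Its relative Retnlg (ENSMUSG00000022651), a gene of the same resistin-like family that is known from granulocytes, is its neighbour at 48872621 to 48874496, also on the plus strand and 28159 bases further along. The promoter windows of this pair are shown because the signal of these 2 neighbours differed between depleted and control lung macrophages in opposite directions. Each window runs from 250 bases before to 50 bases after the RefSeq start of the gene, in GRCm38.p6. For both genes the RefSeq start is not the annotated gene start given above. Capitals mark a match to TTCNNNNGAA, the palindromic pattern that STAT6 is known to bind, which reads the same on both strands. The first window spans chr16:48842359-48842658 and the second chr16:48872358-48872657, both on the plus strand.
Retnla: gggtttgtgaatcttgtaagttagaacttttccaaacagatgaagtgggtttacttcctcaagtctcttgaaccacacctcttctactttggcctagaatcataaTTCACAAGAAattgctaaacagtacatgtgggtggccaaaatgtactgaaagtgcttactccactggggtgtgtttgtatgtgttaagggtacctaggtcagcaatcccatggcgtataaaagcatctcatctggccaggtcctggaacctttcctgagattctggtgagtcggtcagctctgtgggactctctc
Retnlg: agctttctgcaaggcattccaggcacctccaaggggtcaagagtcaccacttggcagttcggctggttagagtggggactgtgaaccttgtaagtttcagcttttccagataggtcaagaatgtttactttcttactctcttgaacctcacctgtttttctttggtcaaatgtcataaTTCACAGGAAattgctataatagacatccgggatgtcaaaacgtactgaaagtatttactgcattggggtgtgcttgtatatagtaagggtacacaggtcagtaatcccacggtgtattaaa
Each window holds 1 match, at 145 bases before the start in Retnla (TTCACAAGAA) and 72 bases before the start in Retnlg (TTCACAGGAA). Aligned with each other, the windows share 178 of 225 bases (79.11%) with 3 gaps, and the matches fall on each other with a single difference, A7G, counted from 1 at the 5′ end of the match, with the Retnla base first. The windows of Mrc1, Il4ra, Mgl2, Stat6 and Cd209a hold no match, and Clec10a is not in the promoter table. Of 32851 mouse promoter windows of the same length, 2284 (6.953%) hold a match. The pattern was chosen with these sequences in view, and a match describes letters only.

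In lung macrophages, the comparison of depleted with control libraries asks how the interstitial macrophages differ when neutrophils are removed. Retnla and Clec10a were higher in every depleted library than in any control library, Mgl2 and Cd209a had higher means with overlapping libraries, and the mannose receptor gene, the receptor chain and the transcription factor had means close to those of the controls. Retnla was among the most abundant transcripts of these cells, at 3438, 4144 and 3642 in depleted lung macrophages 1, 2 and 3, against 2160, 1687 and 1333 in control lung macrophages 1, 2 and 3. Every depleted library was above every control library, and the mean was 3741 ± 364 in depleted and 1727 ± 415 in control macrophages (SD, n = 3 each). The log2 fold change was 1.14. Leaving out 1 library at a time kept this between 0.97 and 1.31. Of all 11867 genes, 94.5% had a lower fold change.

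The galactose-type lectins are encoded by a pair of neighbouring genes on chromosome 11, Mgl2 (ENSMUSG00000040950, 70130329 to 70137550) and Clec10a (ENSMUSG00000000318, 70156197 to 70170834). Both products are C-type lectins of macrophages and dendritic cells that bind galactose and N-acetylgalactosamine. Clec10a stood at 388.9, 224.5 and 322.5 in depleted lung macrophages, against 200.6, 176.3 and 100.2 in control lung macrophages. Its groups did not overlap, although the lowest depleted library was close to the highest control library (log2 fold change 0.99, and 0.69 to 1.21 with 1 library left out). Mgl2 stood at 1131, 687.5 and 754.3 in depleted lung macrophages, against 490.7, 743.4 and 315.1 in control lung macrophages. Its groups overlapped, since control 2 was above depleted 2 (log2 fold change 0.78, and 0.47 to 1.09 with 1 library left out). Of the 3247 stretches of read length (61 bases) in Clec10a exons, 212 (6.53%) also occur in another gene, as do 214 of 2227 (9.61%) in Mgl2 exons. The pair shares 206 of them with each other, so reads from those positions cannot be assigned to one gene with certainty.

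Cd209a (ENSMUSG00000031494, chromosome 8, 3743397 to 3748984), a mouse relative of the lectin DC-SIGN found on dendritic cells and some macrophages, stood at 1817, 1387 and 945.1 in depleted lung macrophages. In control lung macrophages it stood at 960.8, 1005 and 499.7. The groups overlapped, because depleted 3 was below controls 1 and 2, and the log2 fold change of 0.77 ranged from 0.44 to 1.02 with 1 library left out. Mrc1 (ENSMUSG00000026712, chromosome 2, 14229392 to 14332057), the mannose receptor CD206 a widely used marker of alternative activation, stood at 267.6, 238.9 and 242 in depleted lung macrophages, against 287.1, 277.2 and 121.7 in control lung macrophages. Controls 1 and 2 were above all depleted libraries. The log2 fold change of 0.22 was therefore set by control 3, and it was −0.18 without that library.

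The upstream genes of the pathway were low. Il4ra (ENSMUSG00000030748, chromosome 7, 125552120 to 125579474) stood at 33.8, 21.7 and 44.2 in depleted lung macrophages, against 70.1, 37.5 and 8.91 in control lung macrophages, from 3 to 7 estimated reads and from 1 to 15. The groups overlapped fully, and the log2 fold change of 0.13, positive while the linear mean was lower in depleted macrophages, was −0.67 without control 3 and −0.09 without depleted 3. Stat6 (ENSMUSG00000002147, chromosome 10, 127642986 to 127660957) stood at 58.4, 83.8 and 67.7 in depleted lung macrophages, against 74.6, 46.4 and 68.3 in control lung macrophages. These groups overlapped as well, and the log2 fold change of 0.16 was −0.04 without control 2. At 61 bases, 8.21% of the Il4ra exon positions are shared with the predicted gene Gm44876.

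**Figure D1:**
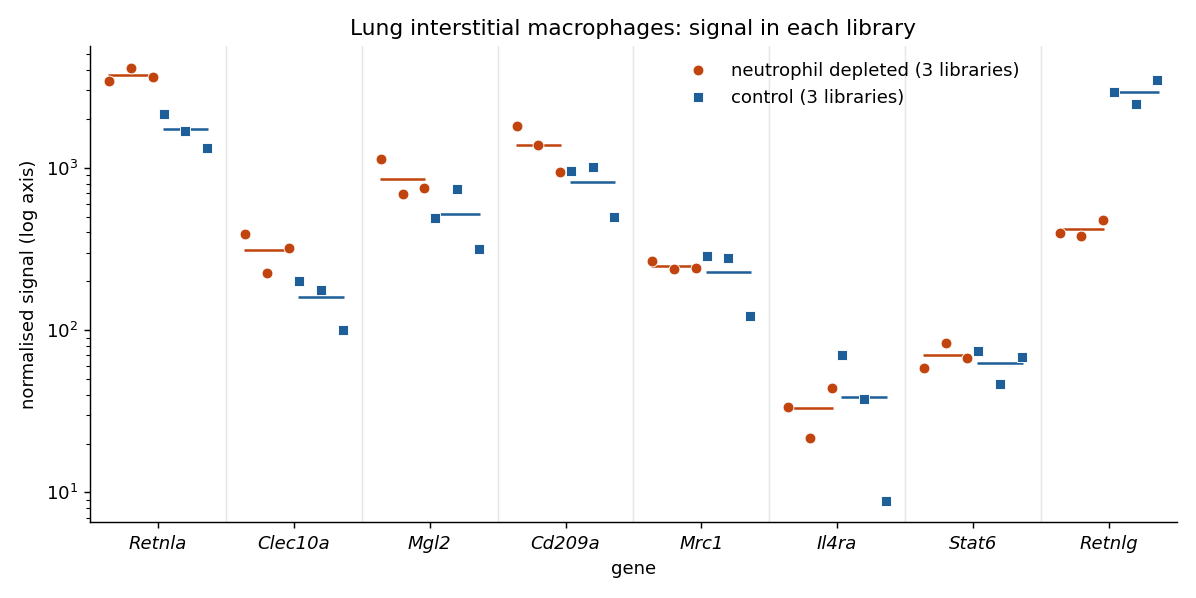
Normalised signal of the 7 genes and Retnlg in each lung macrophage library (log axis, depleted libraries left of control libraries for each gene, a point per library and a line for the mean of a group). The depleted points of Retnla (3438 to 4144) and Clec10a (224.5 to 388.9) lie above all control points, those of Retnlg (379 to 474) lie below them, and those of the other genes overlap them.

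In all, 7 of 7 genes had a higher mean log2 value in depleted lung macrophages, and in 2 of them (Retnla and Clec10a) the groups did not overlap, where 6.21% of all genes did not overlap in that direction and 6.02% in the other. The median log2 fold change of the 7 genes was 0.77, beside 0.04 for all genes. Since the genes were chosen with this comparison known, nothing is read from these counts. Across all genes, limma with Benjamini-Hochberg adjustment called 59 (0.497%) at an adjusted p below 0.05, 8 higher (0.0674%) and 51 lower (0.430%). In bulk libraries, more cells of a type and more RNA of a gene per cell cannot be told apart.

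Retnlg stood at 397, 379 and 474 in depleted lung macrophages, against 2934, 2469 and 3451 in control lung macrophages, from which it differs by a log2 fold change of −2.81. The groups were far apart, in the direction opposite to that of Retnla. Within a library, the signal of Retnla was 8.65, 10.9 and 7.68 times that of Retnlg in depleted lung macrophages, against 0.736, 0.683 and 0.386 times in control lung macrophages. Retnla thus had more signal than Retnlg in each depleted library and less in each control library. Per kb of exon, Retnla averaged 6246 and Retnlg 703 in depleted lung macrophages, against 2883 and 4977 in control lung macrophages. No stretch of 61 bases in the exons of either gene occurs in another gene, so reads of this length tell the pair apart. Retn, which encodes resistin itself, had at most 1.02 estimated reads in a depleted library and 4 in a control library.

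**Figure D2:**
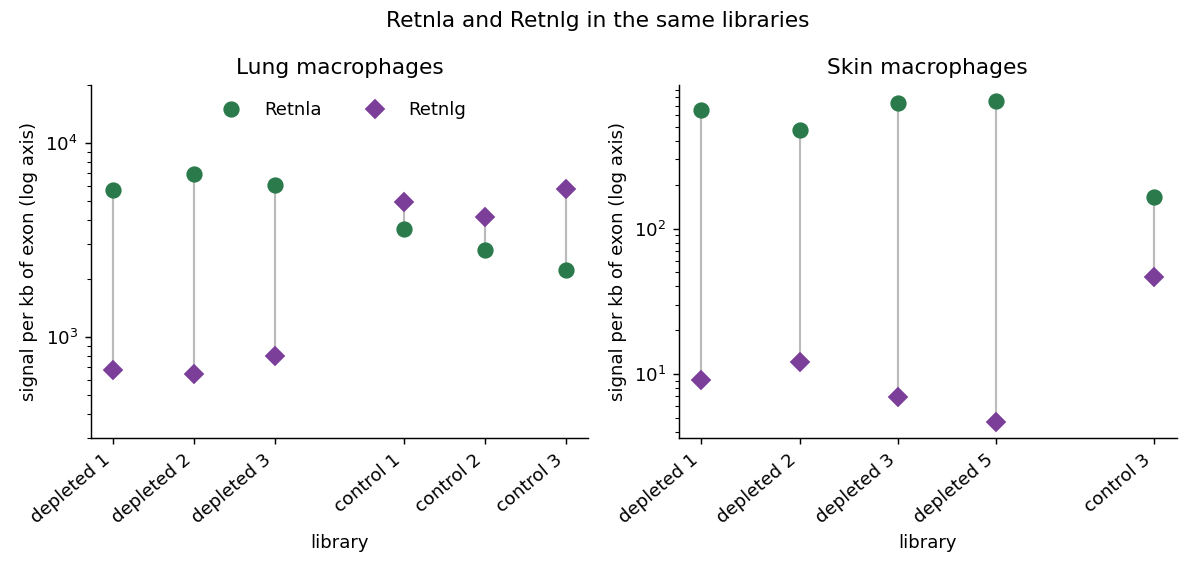
Signal per kb of exon of Retnla (circles) and Retnlg (diamonds) in each lung macrophage library (left) and each skin macrophage library used (right), on log axes that differ between the panels, with a grey line joining the genes within a library and depleted libraries left of controls. Retnla lies above Retnlg in the 3 depleted lung libraries and below it in the 3 control lung libraries, while in skin it lies above in all 5.

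Markers of other cells moved with these values. Neutrophil markers (14 of 16 in the table, Retnlg among them) summed to 0.166 to 0.196% of the library in depleted lung macrophages, against 0.844 to 1.72% in control lung macrophages. Macrophage identity genes (16 of 16) summed to 3.58 to 4.03% in depleted and 2.20 to 3.33% in control libraries, and genes of resident perivascular macrophages (15 of 16) to 0.253 to 0.325% in depleted and 0.146 to 0.253% in control libraries. Lung epithelial genes (15 of 15), which should be absent from the gate, summed to 0.951 to 2.22% in depleted and 0.242 to 0.911% in control libraries. B and plasma cell markers (9 of 12) summed to 0.0234 to 0.0640% in depleted and 0.0845 to 0.212% in control libraries. Eosinophil and basophil markers (5 of 12), from cells known to make interleukin-4, summed to 0.00349 to 0.00552% in depleted and 0.00691 to 0.0136% in control libraries, and mast cell markers (2 of 10) to 0.00215 to 0.00421% in depleted and 0.0113 to 0.0260% in control libraries. Both of the last sums rest on few reads in depleted macrophages, and a gene at 0 reads still adds signal. In lung fibroblasts the eosinophil and basophil list summed to 0.00200 to 0.00577% in depleted and 0.00217 to 0.00591% in control libraries. Cpa3, which is in the eosinophil and basophil list and the mast cell list, was at 0 reads in all depleted macrophage libraries. The other mast cell gene, Hdc, is also in the neutrophil list, so the mast cell sum is not separate from the neutrophil sum. None of these sums in macrophages overlapped between depleted and control libraries, although those of the perivascular genes met at 0.253%. The part of these sums in the values of Retnla and the lectins was not tested. Overlapping sums were found for dendritic cell markers (11 of 16, Cd209a among them), at 0.129 to 0.181% in depleted and 0.084 to 0.170% in control libraries. Cd209a alone held 758 to 1382 ppm of the library in depleted and 430 to 890 ppm in control lung macrophages. The dendritic cell sum is therefore not separate from this member of the set. Mrc1 is in the perivascular and alveolar macrophage lists. Sums of alveolar macrophage markers (16 of 16) overlapped, at 0.598 to 1.04% in depleted and 0.607 to 0.862% in control libraries. Monocyte markers (16 of 16) also overlapped, at 0.812 to 1.37% in depleted and 0.689 to 1.25% in control libraries.

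No gene of the wider interleukin-4 programme was called in lung macrophages, where limma called 0.497% of all genes. At that share, 0 calls in lists of this size say nothing particular about them. The lists were chosen with earlier results known, so calls within them describe these libraries and support nothing further. Of 24 other genes known to respond to interleukin-4 that could be tested, 12 had a higher and 12 a lower mean log2 value in depleted macrophages, and their median log2 fold change was −0.05 (0.04 for all genes). The member nearest to a call among those with a higher mean was Mmp12, the macrophage elastase, at 1.05 (limma, Benjamini-Hochberg adjusted p = 0.0741). Chil3, the chitinase-like Ym1 that often accompanies Retnla, averaged 8639 ± 2716 in depleted and 5876 ± 2052 in control lung macrophages (SD, n = 3 each). Of 16 other genes of the receptor pathway, 6 had a higher and 10 a lower mean, none was called, and the median was −0.10. Jak2 stood at 2.53 (adjusted p = 0.273) and Stat3 at −0.99 (adjusted p = 0.272). Of 14 genes of arginine metabolism, 6 had a higher and 8 a lower mean and none was called (median −0.02). Arg2, which encodes the mitochondrial arginase, averaged 11.1 in depleted and 80.8 in control macrophages (log2 fold change −2.70, adjusted p = 0.0596). Of 5 tested genes for interleukin-4 family cytokines and their sources, none was called.

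Other lectin genes included the nearest companions of the set. Of 16 lectin genes outside the set, 11 had a higher and 5 a lower mean in depleted lung macrophages, with a median of 0.30. As the lists were chosen with earlier results known, the adjusted p-values that follow describe these libraries only and support nothing further. Cd209f, a relative of Cd209a, rose to a mean of 181 in depleted macrophages, against 68.7 in control macrophages (log2 fold change 1.53 ± 0.37 SE, limma with Benjamini-Hochberg adjustment, adjusted p = 0.0360), but it was called in 1 of 6 fits that left out 1 library. Clec4d, a lectin receptor of myeloid cells that is abundant in neutrophils, fell to 57.7 in depleted macrophages, against 240 in control macrophages (log2 fold change −2.0, adjusted p = 1.72e-04), and was not called without control 3. Among genes of classical activation, the opposite state, 7 of 18 had a higher and 11 a lower mean, with a median of −0.62. Of these, Ptgs2, which encodes cyclooxygenase-2, fell by 4.20 (limma adjusted p = 4.91e-10). Il1b, an inflammatory cytokine that neutrophils also make, fell by 2.46 (limma adjusted p = 5.12e-09). Both were called in 6 of 6 fits that left out 1 library. Neither was called without a variance trend (limma adjusted p = 0.19 for Ptgs2 and 0.231 for Il1b).

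The genes whose pattern over the 6 lung macrophage libraries was most like that of Retnla were not the other members. Among 5518 genes ranked by Pearson's r of log2 signal, the first were Rpl3, a ribosomal protein gene, at 0.995, Rps27l at 0.977, Snw1, a splicing and transcription cofactor, at 0.967, Slc31a2, a copper transporter gene, at 0.962, and Nxt2 at 0.961. Clec10a ranked 100th (r = 0.842), Cd209a 233rd (0.769), Mgl2 398th (0.699) and Mrc1 904th (0.512). With 6 libraries and 42 genes above 0.9, this order is a description of these libraries. In skin macrophages, Rpl3, Rps27l and Snw1 did not share the difference seen for Retnla: Rpl3 stood at 1207 to 1707 in depleted skin macrophages and 1760 in control 3, and Rps27l at 175 to 327 in depleted skin macrophages and 381 in control 3, while Snw1 at 80.3 to 146 in depleted skin macrophages spanned the control value of 112. Nxt2, at 18.5 to 64.8 in depleted skin macrophages, spanned the control value of 40 as well. Slc31a2 was above the control in all 4 depleted skin libraries, as Retnla was, at 73.4 to 98.9 against 63.3 in control 3.

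Skin macrophages ask the same question in another organ. Retnla again had more signal in every depleted library than in the control library, the lectins did not, and no gene of the set was called. Retnla stood at 388.8, 284.1, 434.8 and 452.0 in depleted skin macrophages 1, 2, 3 and 5, against 98.4 in control skin macrophages 3. All 4 depleted libraries were above the control library. The mean was 389.9 ± 75.4 in depleted macrophages (SD, n = 4), with a log2 fold change of 1.95 ± 0.33 (SE), and Retnla had the 5th lowest p of 10865 genes (limma, Benjamini-Hochberg adjusted p = 0.292, and 0.0545 to 0.878 over the alternatives run). It did not pass the threshold under any of them. An exact two-sided permutation test of 4 libraries against 1 gave p = 0.2, the smallest it can give.

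Clec10a differed from lung in direction. It stood at 190.1, 184.2, 148.9 and 118.9 in depleted skin macrophages, against 226.0 in control skin macrophages 3. All 4 depleted libraries were below the control, by a log2 fold change of −0.52 ± 0.36 (SE, limma adjusted p = 0.889, exact permutation p = 0.4). Mgl2 stood at 2176, 2311, 2028 and 1534 in depleted skin macrophages, against 1540 in control 3. Depleted 5 was level with the control and the other depleted libraries were above it (0.37 ± 0.32 SE, limma adjusted p = 0.895).

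Cd209a stood at 698.8, 918.7, 1060 and 405.2 in depleted skin macrophages, against 867.0 in control 3 (log2 fold change −0.26). Mrc1 stood at 494.3, 548.3, 633.2 and 654.1 in depleted skin macrophages, against 626.5 in control 3 (−0.11). The depleted libraries fell on both sides of the control for both genes. Il4ra, at 32.1, 19.5, 21.4 and 41.8 in depleted skin macrophages and 37.9 in control 3 (−0.46), and Stat6, at 108.8, 125.0, 58.5 and 143.5 in depleted skin macrophages and 74.8 in control 3 (0.46), also spanned the control value.

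**Figure D3:**
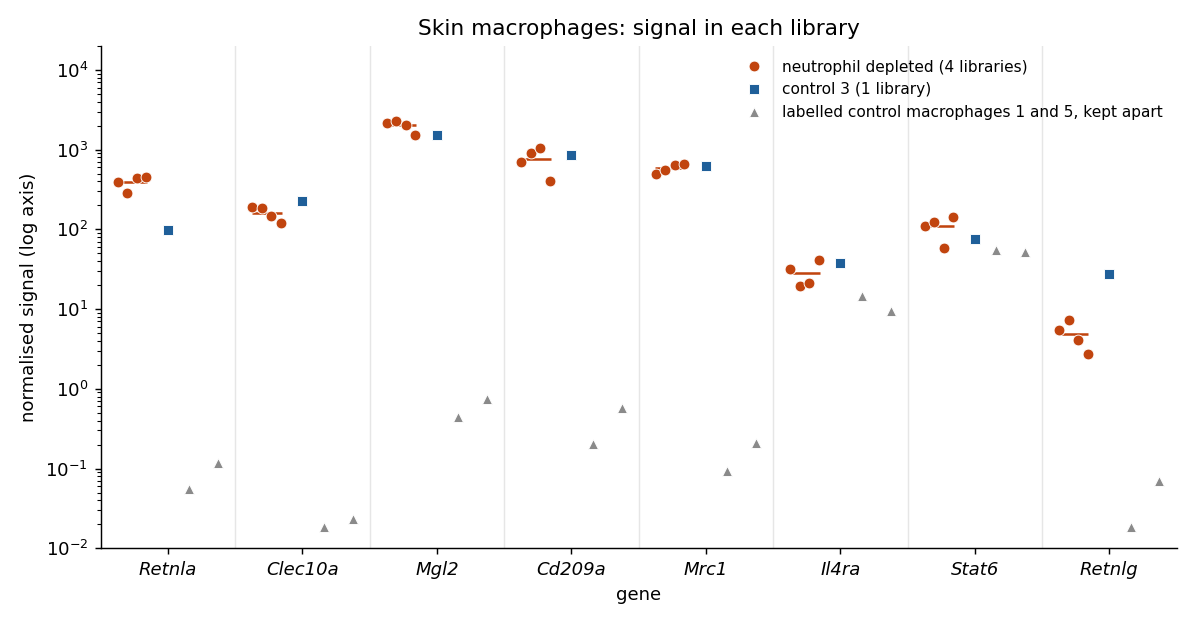
Normalised signal of the 7 genes and Retnlg in each skin macrophage library (log axis, the 4 depleted libraries with a line for their mean, left of control 3), with the 2 libraries kept apart drawn as grey triangles. The depleted Retnla points (284.1 to 452.0) lie above the control point at 98.4, and the Clec10a points (118.9 to 190.1) lie below the control point at 226.0.

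Of the 7 genes, 3 had a higher and 4 a lower mean in depleted skin macrophages, with a median log2 fold change of −0.11 (−0.13 for all genes). All 4 depleted libraries were above the control for 1 gene (Retnla, 21.2% of all genes) and below it for 1 gene (Clec10a, 24.5% of all genes). No gene of the genome was called by limma (0%), 627 had an unadjusted p below 0.05, and the alternatives called 0 to 62. The single control library limits this comparison: its spread is taken from the depleted libraries.

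Retnlg was low in skin, at 5.41, 7.21, 4.10 and 2.77 in depleted macrophages, against 27.6 in control 3 (log2 fold change −2.34 ± 1.2 SE, limma adjusted p = 0.876). All depleted libraries were below the control. Within a library, Retnla had 71.9, 39.4, 106 and 163 times the signal of Retnlg in depleted skin macrophages, against 3.57 times in control 3. Set against Mrc1 of the same library, Retnla had 0.787, 0.518, 0.687 and 0.691 times its signal in depleted skin macrophages, against 0.157 times in control 3. The same ratio in lung was 12.8, 17.3 and 15.1 in depleted macrophages, against 7.52, 6.09 and 11 in control macrophages. In both organs every depleted library thus had a higher ratio to Mrc1 than any control, and the lung values were known beforehand. Nothing is read from this, since the share of all genes with such a ratio was not computed. Of single genes, 21.2% lay above the skin control in all depleted libraries, and 6.21% lay wholly higher in depleted lung macrophages. Set against Clec10a, Retnla overlapped in lung, at 8.84, 18.5 and 11.3 in depleted and 10.8, 9.57 and 13.3 in control macrophages. In skin that ratio was 2.05, 1.54, 2.92 and 3.80 in depleted macrophages, against 0.435 in control 3. The ratio of Clec10a to Mgl2 overlapped in lung and lay at 0.0734 to 0.0873 in depleted skin macrophages, against 0.147 in control 3.

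Beside these values, the marker sums of the skin libraries also differed. Monocyte markers (16 of 16) summed to 0.209 to 0.381% of the library in depleted macrophages, against 0.141% in control 3, and resident perivascular macrophage genes (16 of 16) to 0.324 to 0.415% in depleted macrophages, against 0.581%. Fibroblast genes (16 of 16) summed to 0.0394 to 0.156% in depleted macrophages, against 0.240%, and keratinocyte and Langerhans cell genes (12 of 12) to 0.147 to 0.366%, against 0.643%. Mast cell markers (8 of 10) summed to 0.00101 to 0.00951% in depleted macrophages, against 0.0363%, and neutrophil markers (9 of 16) to 0.0203 to 0.0335%, against 0.0380%. The same neutrophil list summed to 0.0466 to 0.118% in depleted and 0.0641 to 0.101% in control skin fibroblasts, so in skin it does not follow neutrophils alone. Macrophage identity genes (16 of 16) summed to 2.76 to 3.45% in depleted macrophages, against 2.58%, and alveolar macrophage markers (13 of 16) to 0.152 to 0.198%, against 0.143%. T, NK and innate lymphoid cell markers (9 of 16) summed to 0.0170 to 0.0337% in depleted macrophages, against 0.0462%, and B and plasma cell markers (4 of 12) to 0.0255 to 0.0502%, against 0.0228%. Each of these sums in macrophages lay on one side of the control in all depleted libraries, and their part in the values of Retnla and Clec10a was not tested. Of single genes, 21.2% lay above this control in all depleted libraries and 24.5% below it. In skin fibroblasts (depleted, then control), the perivascular list summed to 0.185 to 0.309% and 0.287 to 0.317%. The monocyte list summed to 0.126 to 0.160% and 0.171 to 0.202%, and the T, NK and innate lymphoid list to 0.0259 to 0.0736% and 0.0280 to 0.0374%. In skin these lists thus do not follow their named cells alone. Macrophage identity genes stood at 0.0101 to 0.0210% and 0.0133 to 0.0159% in these fibroblasts. Other sums in macrophages spanned control 3. Eosinophil and basophil markers (6 of 12) summed to 0.00220 to 0.0146% in depleted macrophages, against 0.0140%. Dendritic cell markers (13 of 16, Cd209a among them) summed to 0.0585 to 0.138%, against 0.131%, and lung epithelial genes (5 of 15) to 0.0409 to 0.0650%, against 0.0427%.

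In the wider skin lists none of the genes was called. Of 24 other genes responsive to interleukin-4, 14 had a higher and 10 a lower mean, with a median of 0.04. Chil3 averaged 192.5 ± 59.7 in depleted skin macrophages (SD, n = 4), against 63.6 in control 3 (log2 fold change 1.53, limma adjusted p = 0.602). By contrast, chemokine genes of the same programme pointed the other way, with Ccl24 at 29.8 ± 21.7 in depleted macrophages and 116.6 in control 3, and Ccl17 at 118.7 ± 90.0 in depleted macrophages and 280.5 in control 3 (SD, n = 4), and both were chosen after their values were seen. Of 16 other receptor pathway genes, 7 had a higher and 9 a lower mean (median −0.16). Of 18 other lectin genes, 13 had a higher and 5 a lower mean (median 0.34), and of 12 arginine genes, 4 a higher and 8 a lower mean (median −0.41). Genes of classical activation had a higher mean in 12 of 17 cases and a lower mean in 5 (median 0.47), where the lung median was −0.62.

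The 2 libraries kept apart carried almost no signal of Retnla or of the set's macrophage lectins. The library labelled control macrophages 1 had 0.0557 signal of Retnla, 0.0186 of Clec10a and 0.0929 of Mrc1, and the library labelled control macrophages 5 had 0.116, 0.0232 and 0.209. Il4ra and Stat6, which are not restricted to macrophages, stood at 14.8 and 55.6 in control macrophages 1 and at 9.54 and 52.3 in control macrophages 5. With both libraries counted as labelled, the log2 fold change of Retnla was 6.30 (limma adjusted p = 0.0880), and those of Clec10a and Mrc1 turned to 4.68 and 5.95.

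Fibroblasts served as the cells that should lack most of the set, and depletion called none of its genes there. In lung fibroblasts, Retnla had 1, 1 and 4 estimated reads in depleted and 1, 3 and 0 in control libraries, and Cd209a 0, 5 and 1 in depleted and none in control libraries. Il4ra stood at 10.2, 29.1 and 8.63 in depleted lung fibroblasts, against 13.6, 43.3 and 16.0 in control lung fibroblasts (log2 fold change −0.59 ± 0.74 SE). Stat6 stood at 17.0, 64.1 and 15.5 in depleted lung fibroblasts, against 35.5, 26.0 and 52.0 in control lung fibroblasts (−0.47 ± 0.56 SE). Both overlapped. The reads of Cd209a overlapped too, since 1 depleted library had none. On the signal scale, where 0 reads take a value set by the scaling of each library, its groups are counted as not overlapping (1 of 7 genes higher, beside 4.94% of all genes, and 0 of 7 lower, beside 4.26%), and nothing is read from this. The adjusted p of the 7 genes was 0.969 to 0.988 (limma), and 0 of 7 were called, beside 0.00843% of all genes. At a few reads per gene, a difference in the low members was not detectable at this depth.

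In skin fibroblasts, 3 of the 7 genes passed the filter on low values. Il4ra stood at 12.5, 0.666 and 21.6 in depleted skin fibroblasts 2, 4 and 5, against 14.6, 9.92 and 24.3 in control skin fibroblasts 3, 4 and 5 (log2 fold change −1.03 ± 1.08 SE), with depleted 4 far below the rest. Stat6 stood at 46.3, 67.5 and 83.7 in depleted skin fibroblasts, against 78.3, 51.7 and 32.0 in control skin fibroblasts (0.33 ± 0.44 SE). Mgl2 stood at 0.929 to 2.23 in depleted and 1.15 to 6.06 in control skin fibroblasts. All 3 genes overlapped, where 4.28% of all genes did not overlap in the higher and 4.19% in the lower direction, and none was called (limma adjusted p = 0.960 to 0.973, 0% of all genes called, 283 at an unadjusted p below 0.05, and 0 to 84 called over the alternatives). The other 4 genes had at most 0.886 (Retnla), 0.824 (Clec10a), 5.14 (Mrc1) and 5.70 (Cd209a) in any skin fibroblast library.

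**Figure D4:**
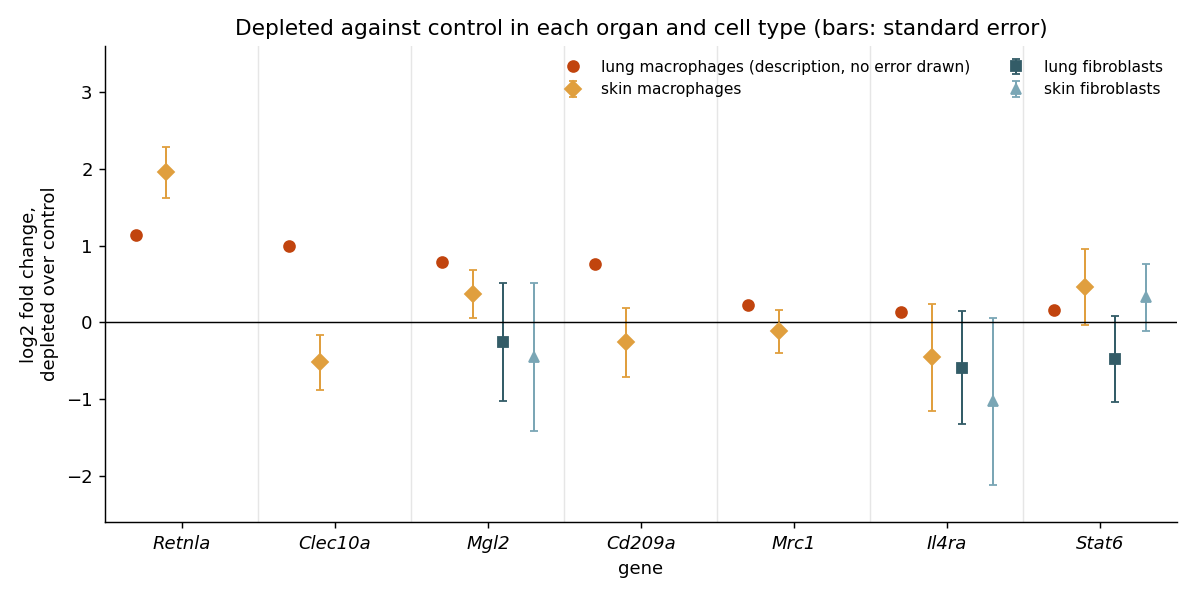
Log2 fold change, depleted over control, of the 7 genes in lung macrophages, skin macrophages, lung fibroblasts and skin fibroblasts, with bars of 1 standard error (none for lung macrophages, and fibroblasts drawn for Mgl2, Il4ra and Stat6 only). Retnla is above 0 in both macrophage sets (1.14 and 1.95), whereas Clec10a is at 0.99 in lung and −0.52 in skin.

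The levels of the set across cell types were compared within each organ over depleted and control libraries together, with the genotype in the fit. The genes were chosen for their link to macrophages, with their lung macrophage values known. A higher level in macrophages was thus built into the choice. In both organs the p-values and calls of this comparison describe these libraries and support nothing further. Retnla, Clec10a, Mgl2, Cd209a and Mrc1 were higher in macrophages than in fibroblasts of both organs by over 5 on the log2 scale, and Il4ra and Stat6 by less than 2. In lung, the log2 difference was 8.06 ± 0.32 (SE) for Retnla (limma, Benjamini-Hochberg adjusted p = 3.32e-20), 7.56 for Cd209a (4.30e-19), 5.88 for Mrc1 (1.24e-14), 5.74 for Clec10a (1.07e-14) and 5.34 for Mgl2 (2.20e-16). Stat6 was higher by 1.07 ± 0.35 (SE, adjusted p = 0.0158), but not called without depleted fibroblasts 3 (0.88, adjusted p = 0.0514). Il4ra was not called (0.79, adjusted p = 0.196), and was called without control macrophages 3 (1.19, adjusted p = 0.0330). In all, 6 of 7 genes were called, beside 36.5% of all genes, and 18.5% of all genes were called higher in macrophages (18.0% lower). The macrophage libraries of 5 genes were all above the fibroblast libraries, beside 10.2% of all genes in that direction and 9.28% in the other.

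In skin, Mgl2 led with a log2 difference of 9.41 (limma, Benjamini-Hochberg adjusted p = 2.40e-10), before Cd209a at 8.76 (9.52e-09), Mrc1 at 8.12 (6.63e-09), Retnla at 7.64 (2.62e-08) and Clec10a at 7.17 (4.50e-08). Il4ra (1.66, adjusted p = 0.0685) and Stat6 (0.64, adjusted p = 0.158) were not called, so 5 of 7 genes were, beside 30.3% of all genes called and 14.3% called higher (16.0% lower). The same 5 genes did not overlap between the cell types, beside 11.2% of all genes in that direction and 10.8% in the other. Il4ra passed with a pseudocount of 5 ppm of the mean library total (1.19, adjusted p = 0.0462), with quantile normalisation (1.55, adjusted p = 0.0294), with median-ratio scaling (1.8, adjusted p = 0.0450) and without depleted fibroblasts 5 (2.11, adjusted p = 0.0333). The 2 scalings moved the median of all genes by 0.142 and 0.126 on the log2 scale.

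**Figure D5:**
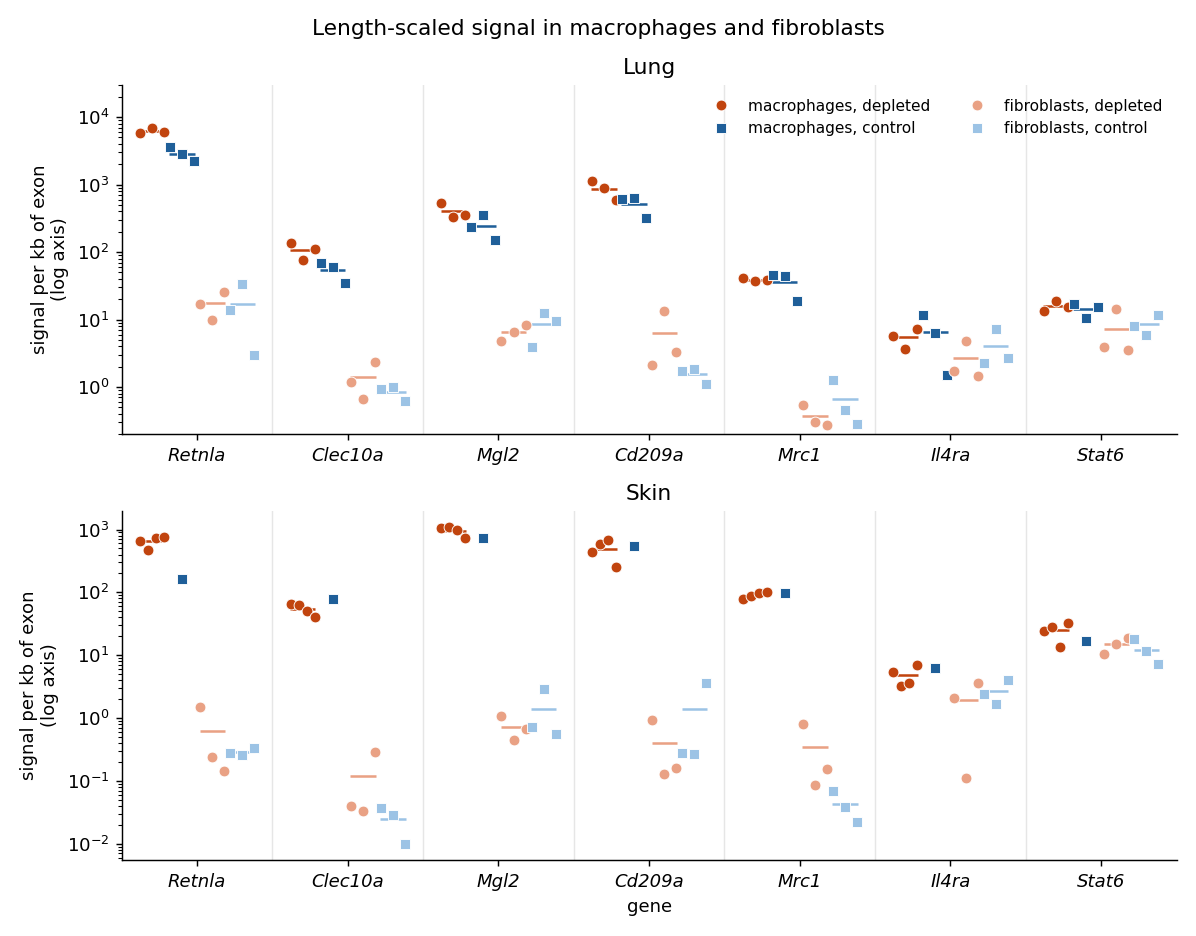
Signal per kb of exon (log axis) of the 7 genes in depleted and control macrophages and fibroblasts of lung and skin, a point per library and a line for the mean of a group. In lung macrophages Retnla has the highest level per kb (mean 6246 in depleted and 2883 in control libraries), and in skin macrophages Mgl2 does (961 in depleted libraries and 735 in control 3).

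The order of levels within macrophages differed between the organs. Per kb of exon, depleted lung macrophages averaged 6246 for Retnla, 874 for Cd209a, 410 for Mgl2, 108 for Clec10a, 39.2 for Mrc1, 15.9 for Stat6 and 5.54 for Il4ra. Control lung macrophages kept this order, at 2883, 519, 247, 54.9, 35.9, 14.3 and 6.47 for the same genes. Depleted skin macrophages averaged 961 for Mgl2, 651 for Retnla, 487 for Cd209a, 91.4 for Mrc1, 55.4 for Clec10a, 24.7 for Stat6 and 4.78 for Il4ra. In control skin macrophages 3 the order began with Mgl2 at 735, Cd209a at 548 and Retnla at 164, followed by Mrc1 at 98.3, Clec10a at 78.0, Stat6 at 17.0 and Il4ra at 6.32. In depleted lung macrophages the per-kb ranges of neighbours in this order did not overlap. In control lung macrophages those of Cd209a and Mgl2, of Clec10a and Mrc1, and of Stat6 and Il4ra did, and in depleted skin macrophages those of Mgl2 and Retnla and of Retnla and Cd209a did. Retnla was thus first in lung macrophages of both genotypes, below Mgl2 alone in depleted skin macrophages, and below both Mgl2 and Cd209a in the control skin library. The tables were normalised separately, so only the order within an organ is compared, and no test was made across them.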

How the data were processed

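Lung and skin macrophages and fibroblasts were sorted and sequenced as 61-base single-end reads, per the labels. The authors deposited a table of normalised signal for each organ. The submitters' processing notes name mm10, limma 3.46, RSEM 1.7.1, cutadapt 1.7.1 and CASAVA 1.8. What each did, and how values were normalised, is not given in the sources used here. In each library the deposited signal is the estimated read number plus 0.5, times a constant, so 1 read was worth 2.997 to 6.81 in lung and 0.0371 to 0.162 in skin. Estimated reads are not whole, so no count model was used.

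Each comparison was fitted across all genes of an organ with limma 3.58.1 in R 4.3.3 (variance trend, two-sided, Benjamini-Hochberg adjustment) on log2 values, after adding 1 ppm of the mean library total (1.04 in lung, 1.001 in skin) to each signal as pseudocount. Fold changes on this scale understate the change of low genes. Genes needed 1 ppm of the library in at least 3 libraries. Genes were called at an adjusted p below 0.05. Scripts were tested on simulated data. Symbols, matched for 11829 lung and 12641 skin genes, coordinates and exon lengths come from GENCODE M21 on GRCm38, and promoter sequences from RefSeq.

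The members and the 21 gene lists were chosen with earlier results of these data known. All members were named, with the resistin-like relatives, the 5 genes most like Retnla and the list members with the lowest p. Alternatives were other pseudocounts, filters and scalings, no variance trend, a model of 4 groups, a replicate block, all libraries as labelled, and leaving out each library.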

Additional observations from a re-analysis of the deposited data

Results flagged for a closer look

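Clec10a was picked out because its difference ran in opposite directions in the macrophages of the organs. The log2 ratio of its means, depleted over control, was 0.97 in lung macrophages, where all 3 depleted libraries were above all 3 control libraries, and −0.49 in skin macrophages, where all 4 depleted libraries were below the single control library. Among all genes, 6.21% lay wholly higher in depleted lung macrophages, and 24.5% lay below the skin control in all depleted libraries. In skin Clec10a was not called (limma adjusted p = 0.889, exact permutation p = 0.4), and its lung values were known beforehand. The difference between the organs was not tested, because the tables were normalised separately. The 7 genes with values and Retnlg, 8 in all, were examined for a library far from the rest among the 4 depleted skin macrophage libraries. None had one, and no other group was examined in this way.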

How the results depend on the processing

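Of 688 values of single genes under alternatives, 14 changed sign; 5 newly passed the threshold and 2 no longer did, not counting lung macrophages, whose values carry no test. The number of genes called in lung macrophages, 59, was 27 with quantile normalisation, 18 in a model of 4 groups, 0 without a variance trend and 11 to 70 with 1 library left out (11 without control 2, 12 without control 3). In lung fibroblasts the 1 called gene was lost with a filter of 10 ppm, quantile normalisation, no variance trend or 4 groups (0 each), and 0 to 7 were called with 1 library left out. In skin macrophages the count of 0 became 1 with a pseudocount of 5 ppm, 62 without a filter, 2 with quantile normalisation or median-ratio scaling, and 0 to 16 with 1 library left out (16 without depleted 1). In skin fibroblasts it was 0 to 16 with 1 library left out (16 without depleted 2). Between skin cell types, 3795 genes became 1854 with all libraries as labelled, which adds the 2 libraries kept apart, and 2893 to 4062 with 1 library left out. With all libraries as labelled, the skin macrophage values changed sign for Clec10a (4.68), Mrc1 (5.95), Il4ra (0.61), Cd209a (5.94) and Retnlg (0.84). Values that changed sign with 1 library left out were, in lung macrophages, Mrc1 (−0.18) and Il4ra (−0.67) without control 3, Il4ra without depleted 3 (−0.09) and Stat6 without control 2 (−0.04), and elsewhere Cd209a in skin macrophages without depleted 5 (0.021, range from −0.44), Il4ra in skin fibroblasts without depleted 4 (0.10, from −1.78), Mgl2 in skin fibroblasts without control 4 (0.084, from −0.77), Mgl2 in lung fibroblasts without control 2 (0.071, from −0.70) and Retnla in lung fibroblasts without control 3 (−0.37, up to 1.09 without control 2). Ranges are over the libraries left out. The cause of these changes was not tested, other than the fewer or added libraries. Low read numbers limit the lung values of Il4ra and Stat6 and all lung fibroblast values, and 1 control library limits skin macrophages.

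Whether the replicate numbers of the labels pair the libraries could not be settled. Same-numbered libraries had correlations of deviations of −0.0625 to 0.0441 in lung, and −0.0307 and 0.0813 between skin fibroblasts. Between depleted skin macrophages and fibroblasts they were −0.00491 (number 2) and 0.157 (number 5), the latter beside at most −0.052 with another number. With so few libraries per group, deviations from the group mean cannot exclude pairing. With a replicate block, 67 genes were called in lung macrophages, 4 in lung fibroblasts and 84 in skin fibroblasts. No paired analysis was possible because of the single usable control library in skin macrophages, for that comparison alone.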
